A study of Homo sapiens with 2 samples.

Results

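The 10 genes described here encode intermediate filament proteins that are neither keratins nor lamins: the neurofilament subunits NEFL, NEFM and NEFH, their partner INA, NES and SYNM, which are grouped here as type IV, and PRPH, GFAP, DES and VIM, which are type III. They were chosen by name, with earlier results of these data known, and no score or peak entered the rule. All 10 were found, each with 1 gene interval, among 35775 symbols of the nuclear chromosomes. H3K9me3, a histone mark of heterochromatin, was profiled by ChIP-seq, the sequencing of DNA recovered with an antibody, in KBM7, a leukemia cell line (chronic myeloid leukemia) whose karyotype is near-haploid. Chromatin was crosslinked with 1% formaldehyde, sheared to a target of 300 bp and incubated with 5 µg of antibody. The study holds 1 H3K9me3 library (Abcam ab8898) and 1 IgG control library from the same line, with no treatment named; the values below come from the H3K9me3 library, the IgG library was not used here, and there is no replicate. RNA was not analysed here, so the expression of these genes and the lineage of the cells could not be checked against marker genes.

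Intermediate filaments are rope-like polymers of the cytoskeleton that give cells mechanical strength. Type III proteins can form filaments on their own, and each marks a lineage: desmin in muscle, GFAP in astrocytes, peripherin in peripheral neurons, and vimentin in mesenchymal cells and many blood cells. Neurofilaments fill the axons of neurons and set their calibre; NEFL forms the core, and NEFM and NEFH add long side arms. H3K9me3 is laid down by methyltransferases such as SETDB1 and SUV39H1, is bound by HP1 proteins, and is found on silenced repeats and on genes kept off in a given lineage.

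Of the 300-base promoter windows of RefSeq (GRCh38.p14), which run from 250 bases before to 50 after the annotated start, 5 were matched to these genes: INA, NES, SYNM, PRPH and VIM. NEFL, NEFM, NEFH, GFAP and DES were not matched. INA and PRPH, which both encode filament proteins of neurons, are shown because they differ in how near the closest peak of the mark, as listed by the authors, lies to the start of the gene, 581 bp for INA and 115335 bp for PRPH. The INA window lies at chr10:103276888-103277187 on the plus strand and the PRPH window at chr12:49294897-49295196 on the plus strand. Both are written 5′ to 3′, with capitals marking CG dinucleotides.
INA: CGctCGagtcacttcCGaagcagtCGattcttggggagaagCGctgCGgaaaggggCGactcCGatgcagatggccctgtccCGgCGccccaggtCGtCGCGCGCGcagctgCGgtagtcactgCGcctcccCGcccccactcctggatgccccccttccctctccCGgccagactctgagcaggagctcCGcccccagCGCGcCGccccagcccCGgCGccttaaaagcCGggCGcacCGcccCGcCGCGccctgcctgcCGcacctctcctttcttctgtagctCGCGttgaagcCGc
PRPH: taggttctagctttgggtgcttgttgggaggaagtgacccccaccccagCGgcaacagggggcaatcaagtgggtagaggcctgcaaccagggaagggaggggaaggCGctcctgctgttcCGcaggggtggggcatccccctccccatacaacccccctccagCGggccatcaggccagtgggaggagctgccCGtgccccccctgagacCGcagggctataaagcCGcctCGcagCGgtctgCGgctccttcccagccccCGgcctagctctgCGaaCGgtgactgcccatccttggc

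The INA window holds 35 CG dinucleotides and 71.3% G and C, and the PRPH window holds 13 and 67.0%. The windows of SYNM, NES and VIM hold 43, 14 and 10 CG dinucleotides. The median over the 13481 windows of protein-coding genes is 22. INA and SYNM thus lie on the CG-rich side of that median, and NES, PRPH and VIM on the poor side. The letters TATAAA, searched on both strands, occur in the PRPH window and in 9.53% of all windows. None of the 5 genes had its start in a peak, and the annotated RefSeq start can differ from the start of the deposited interval. Across protein-coding genes the start lay in a peak in 10.6% of the CG-poorest class (0 to 15 CG), 7.04% of the middle class (16 to 29) and 4.15% of the richest (30 to 69).

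Each gene interval carries a read count, and the gene score is that count divided by the interval's length in kb. The 10 genes held 188 to 2630 reads. The score is not corrected for control reads or for the number of copies of a chromosome. KBM7 cells carry an extra copy of chromosome 8, where NEFL and NEFM lie, and gene intervals of 1 kb or more on that chromosome had a median score of 85.9, which is 2.19 times the median of the other autosomes. Each gene was therefore also read against the median of the intervals of 1 kb or more on its own chromosome. Intervals given with scores are exact Poisson intervals at 95% and cover counting error only.

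The neurofilament genes NEFM and NEFL, both on the extra-copy chromosome, carried the highest raw scores of the 10, and PRPH, GFAP and VIM the lowest. Type IV genes scored from 60.0 to 293 reads per kb, with a median of 75.2 over 6 genes. Type III genes scored from 19.1 to 79.9, with a median of 30.6 over 4 genes, and DES was the one type III gene inside the type IV range. The 10 genes had a median of 70.4, against 43.5 for all symbols and 34.3 for the 18695 protein-coding symbols. Relative to their own chromosomes, 7 of the 10 lay above the median and 3 below. By this ratio NEFL, at 1.80 times, lay below NEFM, NEFH, NES, INA and DES. Its counting interval overlaps those of NES, INA and DES. A score of at least 2 times the chromosome median was reached by 3 of the 10 genes (NEFM, NEFH and NES), against 24.8% of all symbols, 14.4% of protein-coding symbols and 13.8% of protein-coding symbols of 5 to 40 kb, the span of the 10 genes' lengths. Against all symbols a count of 3 in 10 is near the background. INA and DES fell just below that fold, at 1.99 and 1.97 times, and NES just above it, at 2.07 times; the counting intervals of these 3 genes include 2. At folds of 1.5 and 3 the counts were 6 and 1 of the 10 genes, against 36.5% and 13.9% of all symbols.

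**Figure D1:**
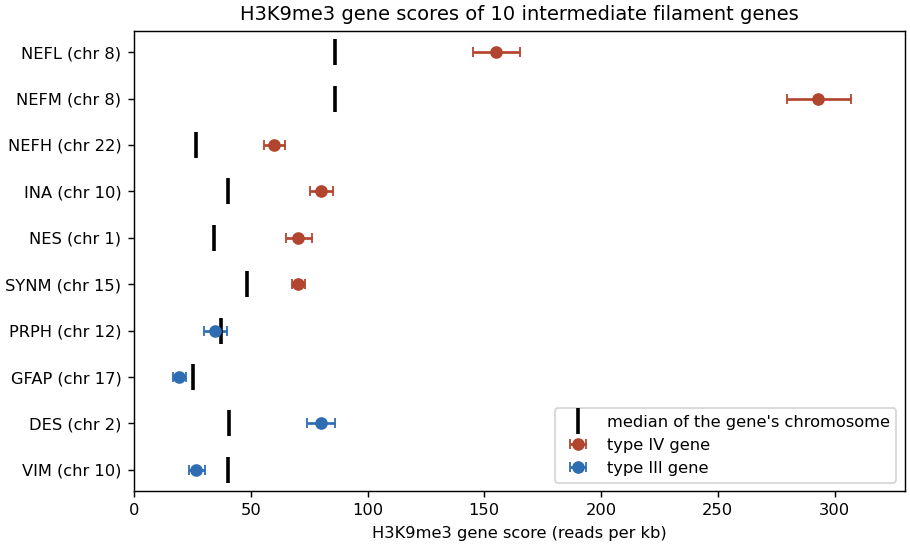
H3K9me3 gene score (reads per kb, x axis) of each of the 10 genes, with 95% Poisson intervals as bars; red points are type IV genes, blue points type III genes, and black ticks the median score of intervals of 1 kb or more on the same chromosome. NEFM at 293 and NEFL at 155 lie to the right of the other 8 genes, and PRPH, GFAP and VIM lie at or left of their chromosome's tick.

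NEFM, the medium subunit whose tail forms side arms between filaments, lies at chr8:24770525-24776607 (hg19, plus strand). It held 1783 reads over 6.083 kb, a score of 293 reads per kb (280 to 307). That score is 3.41 times the chromosome 8 median (3.26 to 3.57). Of the 636 protein-coding symbols of chromosome 8, 12 scored higher. NEFM thus stood high against the other genes of the extra-copy chromosome as well as against the genome, where it lay at the percentile 99.8 of protein-coding symbols.

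NEFL, the light subunit that forms the filament core, lies at chr8:24808468-24814624 on the opposite strand. It held 954 reads over 6.157 kb, a score of 155 (145 to 165), which is 1.80 times the chromosome 8 median (1.69 to 1.92). In that chromosome 72 protein-coding symbols scored higher. NEFL therefore lay at the percentile 97.8 of protein-coding symbols of the genome but at 88.6 among those of chromosome 8. The scores of NEFM and NEFL differed 1.89 times (1.75 to 2.05, exact binomial interval at 95%), a gap wider than the counting error of these reads. Divided by the 2.19 of chromosome 8, the scores would be 134 for NEFM and 70.7 for NEFL, and the second of these is near the uncorrected scores of NES and SYNM. An extra copy and a higher density of the mark cannot be told apart in a raw score.

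**Figure D2:**
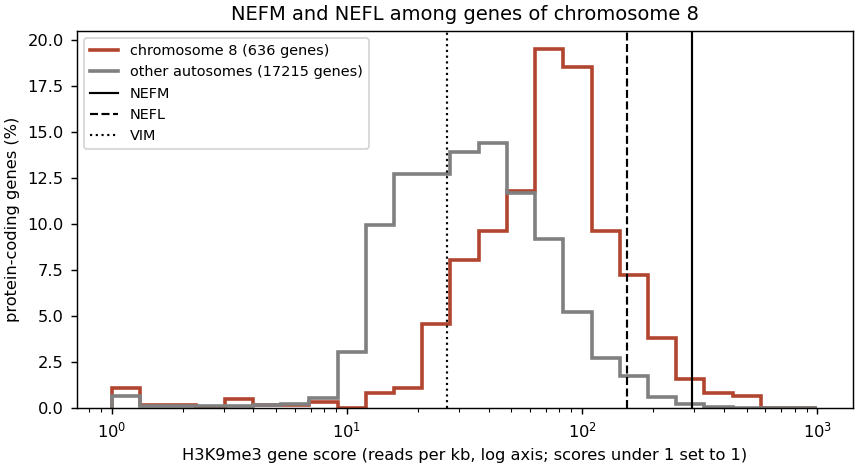
Share of protein-coding genes (y axis, percent) by H3K9me3 gene score (x axis, reads per kb on a log axis) for chromosome 8 in red and for the other autosomes in grey, with vertical lines at the scores of NEFM, NEFL and VIM. The chromosome 8 curve lies to the right of the other; NEFM at 293 lies in its upper tail, NEFL at 155 nearer its bulk, and VIM at 26.7 within the bulk of the other autosomes.

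Genes of similar length on chromosome 8 gave the same order. Among the 114 protein-coding symbols of 0.5 to 2 times the length of NEFL, which include both genes, the median score was 67.8; 3 scored as high as NEFM or higher, itself included, and 18 as high as NEFL or higher. NEFM scored 3.26 times the median of the other intervals within 2.5 Mb on each side, which was 89.9, and NEFL scored 1.68 times its own, which was 92.1. The surroundings of the locus thus scored near the level of the whole chromosome.

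Both chromosome 8 neurofilament genes had their start inside a peak. The NEFM peak at chr8:24769501-24773550 is 4050 bp wide and runs from 1024 bp before the start to 3025 bp after it, so that 49.7% of the gene is covered and its last part is bare. It also holds the start of RP11-624C23.1, an interval of 616 kb that runs away from NEFM on the other strand, 939 bp off. NEFL had a peak at each end. The first, 4650 bp wide, ran from 2576 bp before the start to 2073 bp after it, and the second, 5550 bp wide, began 5074 bp after the start and continued past the gene's end; together they covered 51.3% of it. Cover of the genes of chromosome 8 was lower in general: the median protein-coding symbol there had 3.07% in peaks, and 61 and 59 of 636 had at least the cover of NEFM and NEFL.

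The 31860 bp between NEFM and NEFL were covered to 43.7% by 3 peaks, of 6450, 3000 and 5550 bp, the last of which is the one at the end of NEFL. The whole locus, from the start of NEFM to the start of NEFL, was covered to 45.6%, against 15.5% of chromosome 8. The first of the 3 begins 16144 bp past the end of NEFM, so the peaks lie in the part of the gap nearer NEFL. Peaks on chromosome 8 had a median width of 2700 bp, against 900 bp over the whole list, and the peaks at these genes were 4050 to 5550 bp wide. The peak list is not corrected for copy number either, and the part of the extra copy in these widths was not tested. NEFM and NEFL are neighbours in the same covered region and are not separate measurements of it.

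**Figure D3:**
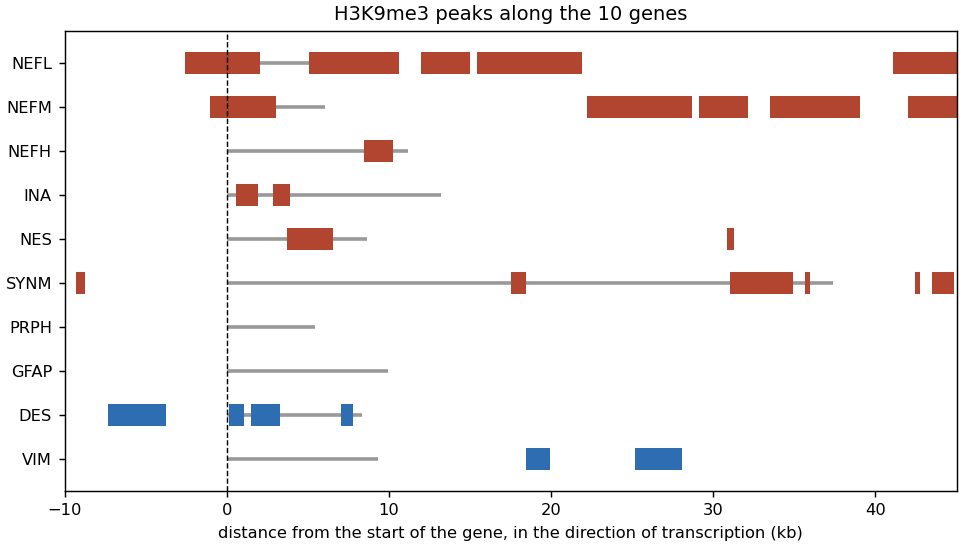
H3K9me3 peaks (coloured blocks, red for type IV and blue for type III genes) by distance from each gene's start in the direction of transcription (x axis, kb), with the gene drawn as a grey line. Blocks cross the dashed start line in NEFM and NEFL alone; within NEFH, NES and SYNM the blocks lie further along the gene, and no block lies within PRPH, GFAP or VIM. Blocks off the grey lines are peaks outside the gene.

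Peaks were present in 7 of the 10 genes, against 36.8% of all symbols, 43.6% of protein-coding symbols and 27.7% of those of 5 to 40 kb; of the protein-coding symbols of chromosome 8 it was 56%. All 6 type IV genes had a peak, and among the 4 type III genes DES had one. The 7 genes carried 14 peaks in all. Their median score was 1.99 times that of their chromosome, and protein-coding symbols of 5 to 40 kb with a peak had a median of 1.86 times. The 3 genes without a peak had a median of 0.753 times, against 0.591 for such symbols without a peak. Peaks and scores come from the same reads, so a higher score in genes with a peak follows from the split, and these values are given as a description. The start itself lay in a peak in 2 of the 10, against 8.59% of all symbols, 7.41% of protein-coding symbols, 6.23% of those of 5 to 40 kb and 12.4% of those of chromosome 8. Both are the chromosome 8 neighbours, so the 2 starts come from a single region.

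NEFH, the heavy subunit with the longest side arm, lies at chr22:29876181-29887379 (plus strand). It held 672 reads over 11.199 kb, a score of 60.0 (55.6 to 64.7), the lowest of the type IV genes. Chromosome 22 had a low median of 26.6, so the score was 2.26 times that of its chromosome (2.09 to 2.43). NEFH was thus next after NEFM by this ratio although 6 of the 10 genes had a higher raw score. Its single peak at chr22:29884651-29886450 is 1800 bp wide and lies 8470 to 10269 bp from the start, between 75.6% and 91.7% of the gene's length. No other peak lay within 50 kb on either side.

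INA, the alpha-internexin that co-assembles with the neurofilament subunits, lies at chr10:105036920-105050108 (plus strand). It held 1056 reads over 13.189 kb, a score of 80.1 (75.3 to 85.0). The chromosome 10 ratio was 1.99 (1.87 to 2.11), while against the intervals within 2.5 Mb, which had a low median of 24.2, it was 3.31. Its peaks, 1350 and 1050 bp wide, begin 581 and 2831 bp after the start and cover 18.2% of the gene. The neighbouring interval AL360001.1, which starts 169 bp away on the other strand, scored 44.6 (43.1 to 46.1), and PCGF6 on the other side, which encodes a Polycomb group protein, scored 13.1 (12.1 to 14.2) without a peak. The score of INA lay above both neighbours by more than counting error.

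NES encodes nestin, the large filament protein of neural progenitors that co-polymerises with vimentin, and lies at chr1:156638555-156647189 (minus strand). It held 608 reads over 8.635 kb, a score of 70.4 (64.9 to 76.2) and 2.07 times the chromosome 1 median (1.91 to 2.24). A single peak of 2850 bp at chr1:156640651-156643500, at the percentile 90.6 of peak widths on chromosome 1, runs from 3689 to 6538 bp after the start and covers 33.0% of the gene. The flanks were nearly bare: of 50 kb, 0% lay in peaks upstream and 0.900% downstream. Nearest neighbours RP11-284F21.7 and RP11-66D17.3 scored 42.5 (39.3 to 45.9) and 20.7 (16.6 to 25.5), both below NES.

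SYNM encodes synemin, which links desmin and vimentin filaments to membrane complexes, and is the longest of the 10 genes, at chr15:99638420-99675798 (plus strand). It held 2630 reads over 37.379 kb, a score of 70.4 (67.7 to 73.1), the same within counting error as that of NES. The ratio to chromosome 15 was 1.45 (1.40 to 1.51), and that to the intervals within 2.5 Mb was 1.21. Chromosome 15 had a raised median of 48.5, which is 1.27 times that of the other autosomes, and the cause was not tested. Against all intervals of the genome the ratio of SYNM was 1.84. Its overlapping neighbour RP11-654A16.3 scored 61.4 and the next interval downstream, TTC23, scored 73.6 (72.1 to 75.2). SYNM therefore stood little apart from its surroundings, where 7.80% of 50 kb upstream and 19.2% of 50 kb downstream lay in peaks. Of its 3 peaks, of 900, 3900 and 300 bp, the widest lies 31031 to 34930 bp from the start, and the 3 cover 13.6% of the gene. Reads in the stretch shared with RP11-654A16.3 count for both intervals.

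DES encodes desmin, the filament protein of muscle, and was the exception among the type III genes. It lies at chr2:220283099-220291461 (plus strand) and held 668 reads over 8.363 kb, a score of 79.9 (73.9 to 86.2) and 1.97 times the chromosome 2 median (1.82 to 2.13). The score was about that of INA, within counting error. Its 4 peaks, of 900, 1800, 300 and 450 bp, the last 2 of which touch, cover 41.3% of the gene. The first begins 152 bp after the start, so the start itself lies just outside. DES lies within the long interval of DNPEP, which scored 51.3, and overlaps AC053503.6 near its end, which scored 95.2 (77.9 to 115) on 106 reads; both share reads with it. SPEG, the muscle kinase gene downstream, scored 41.4 (39.8 to 43.0) without a peak, so the peaks of DES did not extend into it.

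PRPH, GFAP and VIM had no peak. PRPH encodes peripherin and lies at chr12:49687035-49692465 (plus strand); it held 188 reads over 5.431 kb, a score of 34.6 (29.8 to 39.9). That is 0.930 times the chromosome 12 median, with a counting interval that includes 1 (0.801 to 1.07), and 1.33 times the median within 2.5 Mb. Its position relative to the background thus depended on the background chosen. The antisense interval RP11-161H23.9, which contains the gene and shares its reads, scored 24.9 (23.2 to 26.7). The nearest peak lay 115335 bp away.

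GFAP, the filament gene of astrocytes, lies at chr17:42982993-42992914 (minus strand) and held 190 reads over 9.922 kb. Its score of 19.1 (16.5 to 22.1) was the lowest of the 10 and 0.753 times the chromosome 17 median (0.650 to 0.868). The neighbours CCDC103 and KIF18B scored 24.0 (20.1 to 28.3) and 24.6 (22.6 to 26.8), likewise without a peak, and the nearest peak lay 50037 bp away. The counting interval of GFAP lies below that of KIF18B and overlaps that of CCDC103.

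VIM encodes vimentin, which is widely expressed and serves as a contrast to the neuronal and muscle genes. It lies at chr10:17270258-17279592 (plus strand) and held 249 reads over 9.335 kb, a score of 26.7 (23.5 to 30.2). That is 0.662 times the chromosome 10 median (0.583 to 0.750), the lowest such ratio of the 10. The counting interval overlaps that of GFAP (0.650 to 0.868). Against all intervals of the genome GFAP was lower, at 0.501 times beside 0.697 for VIM. The astrocyte gene GFAP and the neuronal gene PRPH had no peak either, so VIM did not stand apart from them. INA, on chromosome 10 like VIM, scored 80.1. Counting error does not bridge the gap between these 2 genes, and both are read against the same chromosome median. The nearest peak, 1500 bp wide, begins 9109 bp past the end of VIM, and 15.9% of 50 kb downstream lay in peaks. Its overlapping antisense interval RP11-124N14.3 scored 47.7 (37.3 to 60.1) on 72 reads. With 188 to 249 reads, the scores of PRPH, GFAP and VIM carry wider relative counting error than those of the other 7 genes.

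**Figure D4:**
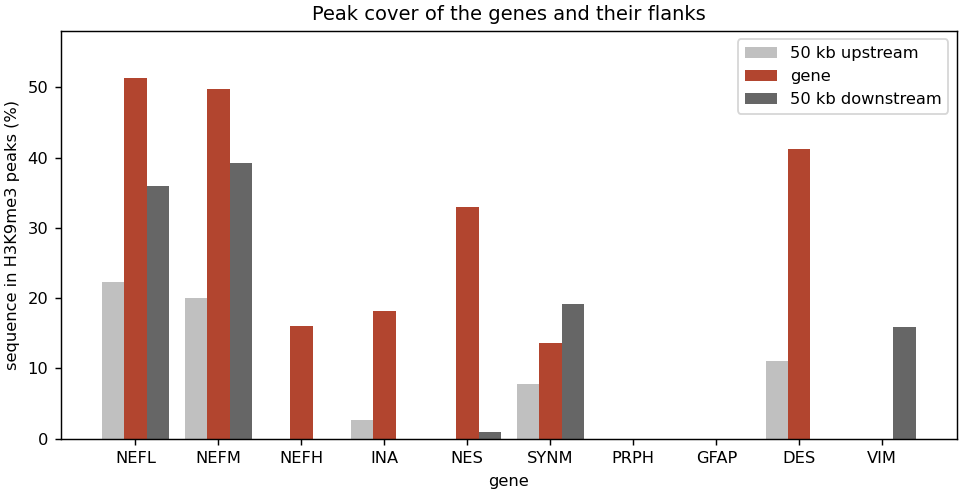
Percent of sequence in H3K9me3 peaks (y axis) for each of the 10 genes (middle bar, red) and for the 50 kb upstream (left bar) and downstream (right bar). NEFL, NEFM, NEFH, INA, NES and DES are covered more than their flanks, and NEFL and NEFM also have covered flanks on both sides. VIM has cover in its downstream flank without any in the gene.

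Cover of the flanks differed among the genes. NEFL and NEFM were covered to 51.3% and 49.7%, and 29.1% and 29.7% of the 100 kb around them lay in peaks, part of it shared. Of chromosome 8 as a whole, 15.5% lay in peaks, and the part of the extra copy in these shares was not tested. NEFH, INA, NES and DES were covered to 16.1%, 18.2%, 33.0% and 41.3%, with 0%, 1.35%, 0.450% and 5.55% of the surrounding 100 kb in peaks. In SYNM gene and surroundings were about equal, at 13.6% and 13.5%. The peaks of these genes also differed in place. The last 50% of the gene held 100% of the peak sequence of NEFH, 78.0% of that of NES and 82.4% of that of SYNM. It held 0% in NEFM and INA, 21.7% in DES and 34.3% in NEFL. Over the 2388 protein-coding symbols of 5 to 40 kb with a peak the median was 53.9%, so the 7 genes lay on both sides of the usual value. A peak lay within 1 kb of the start in NEFL, NEFM, INA and DES, 4 of the 10 genes, against 14.2% of all symbols, 12.4% of protein-coding symbols and 10.6% of those of 5 to 40 kb. As background, the proteins of NEFM, NEFH, NES and SYNM have long carboxy-terminal tails. Of these genes, NEFM held 0% of its peak sequence in the last 50%. Exon positions were not used here, and a link between tails and peaks was not tested.

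**Figure D5:**
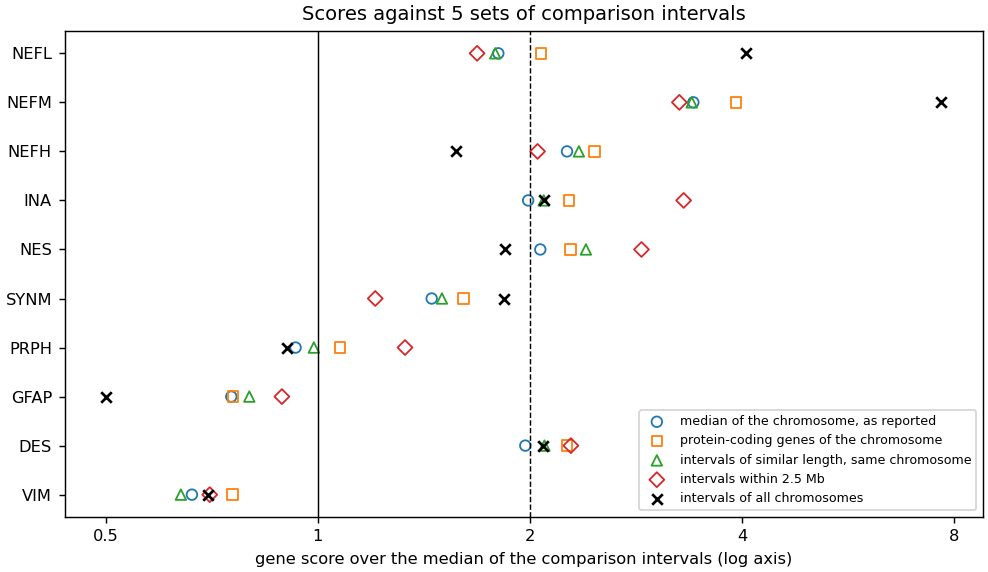
Gene score divided by the median of 5 sets of comparison intervals (x axis, log scale) for each of the 10 genes, with lines at 1 and 2. NEFM lies above 2 and GFAP and VIM below 1 with each of the 5 sets, whereas INA, NES, NEFL, NEFH and DES lie on both sides of 2, and PRPH on both sides of 1.

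The keratins, the other large branch of the superfamily and the filaments of epithelia, scored higher relative to their chromosomes. The 10 genes had a median score of 70.4 and a median of 1.89 times their chromosome, against 92.4 and 2.98 times for 55 keratins. A score of at least 2 times the chromosome median was found for 3 of 10 genes and 43 of 55 keratins (78.2%), against 24.8% of all symbols and 14.4% of protein-coding symbols. Chromosome 17 had a lower median (25.4) than chromosome 12 (37.2), so a given score yields a higher ratio there. A peak was present in 7 of 10 genes and in 39 of 55 keratins (70.9%), against 36.8% and 43.6%. The start lay in a peak in 2 of 10 and in 22 of 55, against 8.59% and 7.41%. The 2 families thus had a like share with a peak and unlike scores. KRT10, a keratin of the upper epidermis, was highest at 191 (179 to 204), below the raw score of NEFM. Relative to their own chromosomes the order was the reverse, with KRT10 at 7.52 times and NEFM at 3.41 times. KRT9 of palms and soles at 144 (135 to 154) and the hair keratin KRT38 at 142 (130 to 154) followed. Like KRT10, both lie on chromosome 17. KRT19 scored 138, KRT27 127 and KRT74 122. KRT81 was lowest at 14.6 (11.6 to 18.1). Keratins lie in a cluster on each of chromosomes 12 and 17 and share their surroundings, so they are not independent of each other.

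The lamins and several other filament genes scored below the 10 genes in the median. The 8 genes are the lamins LMNA, LMNB1 and LMNB2, the lens beaded-filament genes BFSP1 and BFSP2, SYNC, and the keratins KRT8 and KRT18. These keratins are among the 55 above. Of the 8, 0 reached 2 times their chromosome median, against 24.8% of all symbols and 14.4% of protein-coding symbols. A peak was present in 3, against 36.8% and 43.6%. In so few genes, both counts are near the shares of protein-coding symbols. Their median score was 21.4, against 43.5 for all symbols and 34.3 for protein-coding symbols. BFSP2 was highest at 53.6 (51.9 to 55.2) and KRT18, of simple epithelia, lowest at 15.9 (12.2 to 20.3). The lamin genes, which build the nuclear lamina, lay at 1.01 times (LMNA), 0.455 times (LMNB1) and 0.519 times (LMNB2) the median of their chromosome, beside 0.662 for VIM and 0.930 for PRPH.

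Linker genes, whose proteins tie filaments to junctions and other structures, ranged from low to high scores. Of 10 genes 3 reached 2 times their chromosome median, against 24.8% of all symbols and 14.4% of protein-coding symbols. The count is near the share of all symbols and above that of protein-coding symbols. A peak was present in 8, against 36.8% and 43.6%, but these genes are long, with a median of 58.1 kb against 27 kb for protein-coding symbols. The start lay in a peak in 0, and the median score was 47.4, against 43.5 and 34.3. EPPK1 and PLEC, which encode epiplakin and plectin, both lie on chromosome 8 and scored 309 (299 to 318) and 281 (277 to 285), at 3.59 and 3.27 times the chromosome 8 median. They thus stood about as high as NEFM by the same measure, with 89.9% and 63.9% of their length in peaks. Their distance from each other was not examined, so they may not be separate measurements. DSP, the desmosomal protein desmoplakin, scored 94.7 (91.9 to 97.6), which is 2.29 times the chromosome 6 median, with 25.3% of its length in peaks. MACF1, a linker of actin and microtubules, was the lowest at 18.1 (17.7 to 18.5). Among 14 genes for chaperones, kinases, transport and turnover factors of filaments, 0 reached 2 times their chromosome median, against 24.8% of all symbols and 14.4% of protein-coding symbols. A peak was present in 6 (42.9%), against 36.8% and 43.6%, so that count is near the background. The median score was 34.1, below the 43.5 of all symbols and near the 34.3 of protein-coding symbols. CRYAB, the chaperone of desmin, was highest at 69.7 (65.5 to 74.0).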

How the data were processed

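H3K9me3 and IgG libraries of KBM7 cells were made from sheared, crosslinked chromatin, per the labels. The submitters' processing notes name Bowtie2, MACS and hg19 but no versions or roles. The authors deposited a read count per gene interval, not normalised, and a gene score, which equals reads divided by interval length in kb (largest difference 3.03e-06). The deposited peak list gives coordinates only, on a 150 bp grid. The sources used here do not state total depth, read filters or how IgG was used. The 40237 intervals hold 78512210 reads, some counted more than once where intervals overlap.

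For symbols with several intervals the highest score was used. Overlap with a peak meant 1 bp or more; the start is the interval's first base by strand. Gene types came from RefSeq (GRCh38.p14) by symbol or synonym, with 22176 of 35775 symbols matched. Intervals are exact at 95% and cover counting error only, since reads are not molecules. No p-value was computed, as there is 1 library. Overlap and fold calculations were tested on simulated data. The members and gene lists were chosen with earlier results of these data known. Named genes are the 10 members, their neighbours, and from each list the highest, the lowest and those at 2 times the chromosome median (at most 6); the lowest of the last list is not reported here. The 5 to 40 kb class was chosen after seeing the data. The software was matplotlib 3.10.9, scipy 1.17.1, pandas 2.3.3 and numpy 2.4.6 under Python 3.11.15.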

Additional observations from a re-analysis of the deposited data

How the results depend on the processing

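The count of genes at 2 times the chromosome median or more (3 of 10) depended on the comparison set. It was 1 against all intervals of the chromosome (NEFM), 6 against its protein-coding symbols, 5 against intervals of 0.5 to 2 times the length and 5 against intervals within 2.5 Mb. A changed comparison set shifts the share for every gene, and the shares of all symbols under these sets are not given here. These counts thus cannot be read against a background. At a fold of 1.5 the count was 6 and at a fold of 3 it was 1 (NEFM), against 36.5% and 13.9% of all symbols. NEFM reached 2 times in 9 of 9 comparison and scoring settings at that fold, with ratios of 2.92 to 7.66. NEFH and NES did so in 7 each, INA in 5, DES in 4 and NEFL in 2. The cause of these shifts was not tested. GFAP and VIM stayed below 1 in all 9. The 9 settings overlap, since each gene has 1 interval. Taking the mean or the longest interval of a symbol changes a ratio only through the chromosome median. The tallies therefore do not count separate checks. Of the scores and ratios of single genes under the alternatives, 75 stayed within the counting interval, 35 moved beyond it, and no gene at 2 times or more fell below 1. The 75 include the scores under the mean and the longest interval of a symbol, which could not move, so this tally overstates stability. PRPH, at 0.930 times its chromosome median, lay below 1 in 7 of 9 settings and above it against protein-coding symbols (1.07) and within 2.5 Mb (1.33). The count of genes with a peak was 7 under an overlap of 300 bp, peaks of 900 bp or more, and 5 kb flanks. The count with a peak at the start was 2, and 4 with a peak within 1 kb (INA and DES added) and 4 within 2.5 kb. Of the altered peak settings, the share of all symbols is given for 1 kb alone, at 14.2%. The genes' median score was 1.62 times that of all symbols and 2.59 times that of protein-coding symbols of 5 to 40 kb, a set added after seeing the data, whose median is lower. Peaks ranked by fold or significance were not run because the list used here gives neither. No paired analysis was possible because there is 1 library. Depth limits PRPH, GFAP and VIM most, with 188 to 249 reads.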
